A study of Mus musculus with 6 samples.

Results

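The clock output and repressor genes Dbp, Tef, Hlf, Per1, Per2, Per3, Nr1d1, Nr1d2, Cry2 and Usp2 were taken by gene symbol from a table of 7373 genes measured in mouse kidney. Of these 10 genes, 9 are listed in the table, and Cry2 was not analysed here. The mRNA came from adult males of the inbred mouse strain FVB/N, with 3 transgenic and 3 control kidney samples. The transgenic mice overexpressed CryAB, a small heat shock protein, carrying the R120G missense mutation. The transgene was driven by the α-myosin heavy chain promoter, which acts in heart muscle cells, and the kidneys were taken before heart failure set in. The column headings of all samples used, transgenic and control, read Pre_IRI. The control mice were matched for age and sex and are labelled Control, with no other genotype given. Libraries were made from RNA of snap-frozen pieces of whole kidney, so each mixes cortex and medulla, and fewer cells of a type cannot be told apart from less RNA per cell. The labels name neither separate animals for the 3 samples of a group nor the hour at which a kidney was taken. A p-value here therefore reflects sample-to-sample spread, which may be technical. Samples are called kidneys below for short.

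The circadian clock of a cell is a loop in which the activators BMAL1 and CLOCK bind E-box sequences and switch on genes whose products later shut them down. PER and CRY proteins repress BMAL1 and CLOCK directly, while REV-ERB alpha and beta, the products of Nr1d1 and Nr1d2, repress the gene of BMAL1 itself. DBP, TEF and HLF are PAR bZIP transcription factors that carry the rhythm to D-box sequences of output genes, in kidney among them genes of water, salt and drug handling. In mouse tissues Nr1d1 and Dbp transcripts reach their daily peak earlier than Per2 transcripts, and Arntl (which encodes BMAL1), Npas2, Clock, Cry1 and Nfil3 peak at a phase far from that of Dbp. Kidneys taken at different hours can therefore differ in the ratio of such genes.

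The libraries held 23.5 M (transgenic kidney 2, the shallowest) to 47.6 M (control kidney 3, the deepest) estimated counts over the listed genes. Levels are given as CPM (TMM-scaled read counts relative to library size) over genes outside chromosomes X and Y, and values are compared between libraries and not between genes. Control kidney 3 stood apart: all 178 listed X and Y genes were at 0 in it and in none of the other 5 libraries, and its score on the leading principal component (51.9% of the variance) was 24.7, against -12.5 to 0.71 for the others. No clock gene lies on X or Y, and these chromosomes were left out of the tests. Summed levels of the 4 inner medulla markers were 383 to 442 CPM in transgenic kidneys and 446 to 551 CPM in control kidneys, and those of the 2 listed podocyte markers, out of 4, were 139.6 to 171 CPM in transgenic kidneys and 89.6 to 123 CPM in control kidneys. The 6 proximal tubule markers summed to 56923 to 61337 CPM in transgenic kidneys and 58463 to 66759 CPM in control kidneys, and no skeletal or cardiac muscle marker, out of 4, is listed. The part of cell makeup in the clock gene values was not tested.

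None of the 9 clock genes differed between transgenic and control kidneys by the edgeR quasi-likelihood test (adjusted p = 0.997 for each, Benjamini-Hochberg over 7194 genes), where 0.0139% of all genes tested did. None had an unadjusted p under 0.05 in the edgeR test, against 1.82% of all genes; the smallest was that of Dbp, 0.117. In none of the 9 were the 3 transgenic values separate from the 3 control values, which was so in 5.98% of all genes (2.96% higher and 3.02% lower in transgenic kidneys). The mean was higher in transgenic kidneys for 6 genes and lower for 3, with a median log2 fold change of 0.095, against 0.0010 over all genes. No setting tried gave a clock gene an adjusted p under 0.587.

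**Figure D1:**
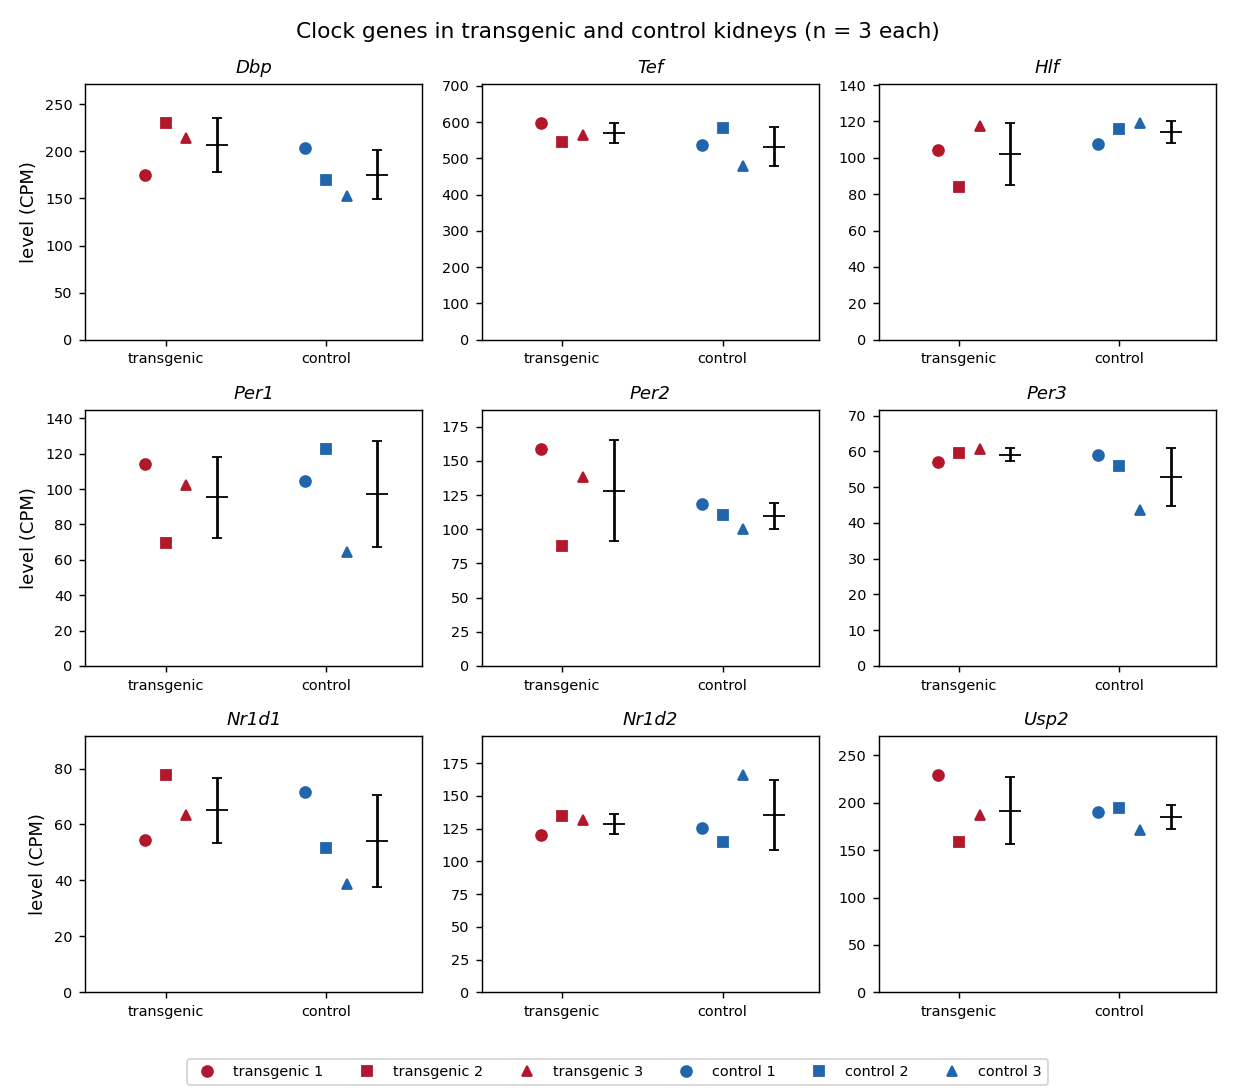
Level in CPM (y axis from 0) of the 9 listed clock genes in each library, with transgenic kidneys left of control kidneys; bars show the mean ± SD (n = 3). In every panel the 3 transgenic values and the 3 control values overlap.

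Among the PAR bZIP genes, Dbp (gene ID 13170; chromosome 7, 45705100 to 45710203, mm10) had 175, 230 and 215 CPM in transgenic kidneys 1, 2 and 3, against 204, 169.7 and 153 CPM in control kidneys 1, 2 and 3. Transgenic kidneys 2 and 3 were above all controls, but transgenic kidney 1 lay among them. The means were 207 ± 28.6 CPM in transgenic and 175 ± 25.9 CPM in control kidneys (SD, n = 3 each), a log2 fold change of 0.24 ± 0.14 (SE), which was 0.030 with limma-voom array weights. Without 1 library it was 0.15 (control kidney 3 or transgenic kidney 2 left out) to 0.36 (control kidney 1 left out). Tef (gene ID 21685; chromosome 15, 81802673 to 81826863, mm10), the most even of the 9 genes, had 599, 545 and 564 CPM in transgenic kidneys and 536, 585 and 478 CPM in control kidneys, a log2 fold change of 0.095 ± 0.096 (SE), which was 0.022 without control kidney 3, 0.057 without transgenic kidney 1 and 0.17 without control kidney 2. Its groups overlapped, with control kidney 3 lowest. Hlf (gene ID 217082; chromosome 11, 90336535 to 90390917, mm10) had 104, 84.03 and 118 CPM in transgenic kidneys and 108, 116 and 119 CPM in control kidneys, a log2 fold change of -0.17 ± 0.13 (SE), which was -0.044 without transgenic kidney 2 and -0.28 without transgenic kidney 3. Here transgenic kidney 2, which was highest for Dbp, was lowest, and the controls were close together. The kidney with the highest level was transgenic kidney 2 for Dbp, transgenic kidney 1 for Tef and control kidney 3 for Hlf.

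The REV-ERB genes were highest in different kidneys, a difference that rests on control kidney 3. Nr1d1 (gene ID 217166; chromosome 11, 98767932 to 98775377, mm10) had 54.6, 77.6 and 63.3 CPM in transgenic kidneys, against 71.5, 51.5 and 38.8 CPM in control kidneys. Transgenic kidney 2 was highest and control kidney 3 lowest, with a 1.998-fold range over the 6 libraries. The means were 65.1 ± 11.6 CPM in transgenic and 53.9 ± 16.5 CPM in control kidneys (SD, n = 3 each), a log2 fold change of 0.27 ± 0.22 (SE), the furthest from 0 of the 9 genes. Without control kidney 1 it was 0.53, without control kidney 3 it was 0.084, and with limma-voom array weights it turned to -0.088. Nr1d2 (gene ID 353187; chromosome 14, 18204056 to 18239106, mm10) had 120.0, 135 and 132 CPM in transgenic kidneys, against 126, 115 and 166 CPM in control kidneys. Control kidney 3, lowest for Nr1d1, was highest for Nr1d2, and the log2 fold change was -0.073 ± 0.14 (SE), or 0.099 without control kidney 3. With control kidney 3 set aside, transgenic kidney 2 was highest and control kidney 2 lowest for both genes.

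Among the period genes, which encode the direct repressors, Per1 (gene ID 18626; chromosome 11, 69095108 to 69109965, mm10) had 114, 69.6 and 102 CPM in transgenic kidneys, against 105, 123 and 64.3 CPM in control kidneys. Each group held 1 low kidney, transgenic kidney 2 and control kidney 3, and the range was 1.91-fold. Its means were 95.3 ± 23.0 CPM in transgenic and 97.2 ± 29.9 CPM in control kidneys (SD, n = 3 each), a log2 fold change of -0.028 ± 0.25 (SE), which went to -0.25 without control kidney 3 and 0.18 without control kidney 2. Per2 (gene ID 18627; chromosome 1, 91415977 to 91459351, mm10) had 159, 87.5 and 139 CPM in transgenic kidneys, against 119, 110 and 100.1 CPM in control kidneys. The transgenic kidneys held both the highest and the lowest value of the 6, so that the control values lay between them. The means were 128 ± 36.7 CPM in transgenic and 109.7 ± 9.32 CPM in control kidneys (SD, n = 3 each), a log2 fold change of 0.23 ± 0.20 (SE), which was 0.44 without transgenic kidney 2 and 0.044 without transgenic kidney 1. Per3 (gene ID 18628; chromosome 4, 150997018 to 151044707, mm10) had 57.0, 59.5 and 60.7 CPM in transgenic kidneys, against 59.0, 55.9 and 43.6 CPM in control kidneys. All but control kidney 3 lay within 55.9 to 60.7 CPM, and the log2 fold change of 0.16 ± 0.12 (SE) was 0.041 without it. Usp2 (gene ID 53376; chromosome 9, 44067021 to 44095627, mm10), a clock-driven gene of a ubiquitin-specific protease, had 229, 158 and 187 CPM in transgenic kidneys, against 190.0, 194 and 171 CPM in control kidneys, a log2 fold change of 0.050 ± 0.13 (SE), which was -0.098 without transgenic kidney 1, -0.0037 without control kidney 3 and 0.17 without transgenic kidney 2. Its highest and lowest kidneys were transgenic kidneys 1 and 2, as for Per2.

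**Figure D2:**
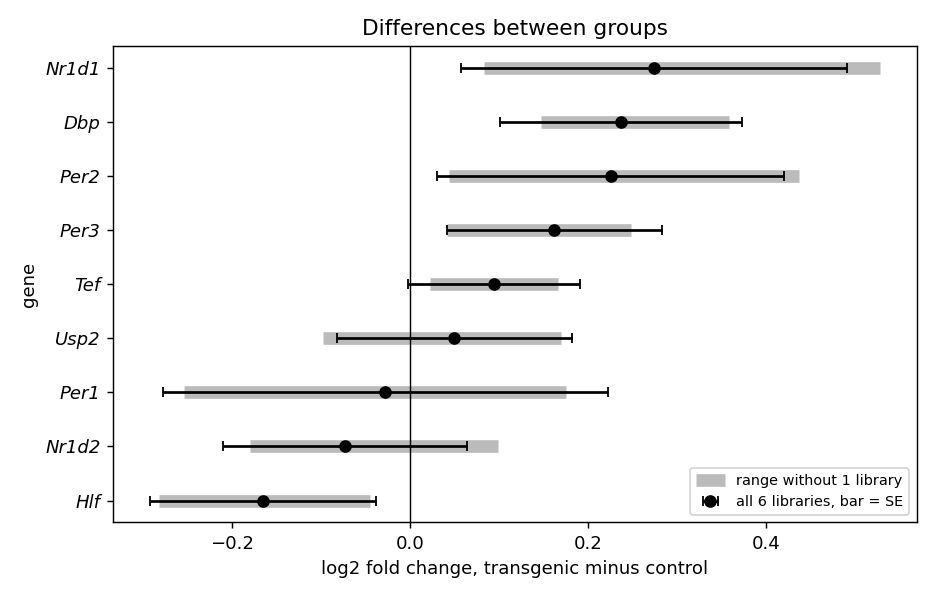
Log2 fold change, transgenic minus control (x axis), of the 9 clock genes (y axis); black bars show the SE and grey bands the range when 1 library is left out. Values run from -0.17 for Hlf to 0.27 for Nr1d1, and the bands of Usp2, Per1 and Nr1d2 cross 0.

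The spread within groups was large for some of these genes. The within-group SD of the log2 level was 0.43 for Per1, larger than in 98.3% of all genes, 0.36 for Nr1d1 (96.4%) and 0.33 for Per2 (95.1%). It was 0.21 for Dbp (77.5%), 0.20 for Nr1d2 (76.7%), 0.20 for Usp2 (75.5%), 0.18 for Hlf (69.4%) and 0.17 for Per3 (63.7%), and 0.11 for Tef, larger than in 36.2% of genes. The median over the 9 genes was 0.20, against 0.14 over all genes. Of the 9 genes, 5 had their lowest value in control kidney 3 and 3 in transgenic kidney 2, while 3 had their highest in transgenic kidney 1. Control kidney 3 was also the deepest library and transgenic kidney 2 the shallowest, and the part of depth in these values was not tested. Control kidney 3 was often extreme in other lists too. It was highest for 8 and lowest for 2 of 11 clock cofactors, kinases and ubiquitin ligases. For 17 clock-controlled genes it was highest in 9 and lowest in 3. No share over all genes is given, so these counts are not read as a trait of the clock genes.

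**Figure D3:**
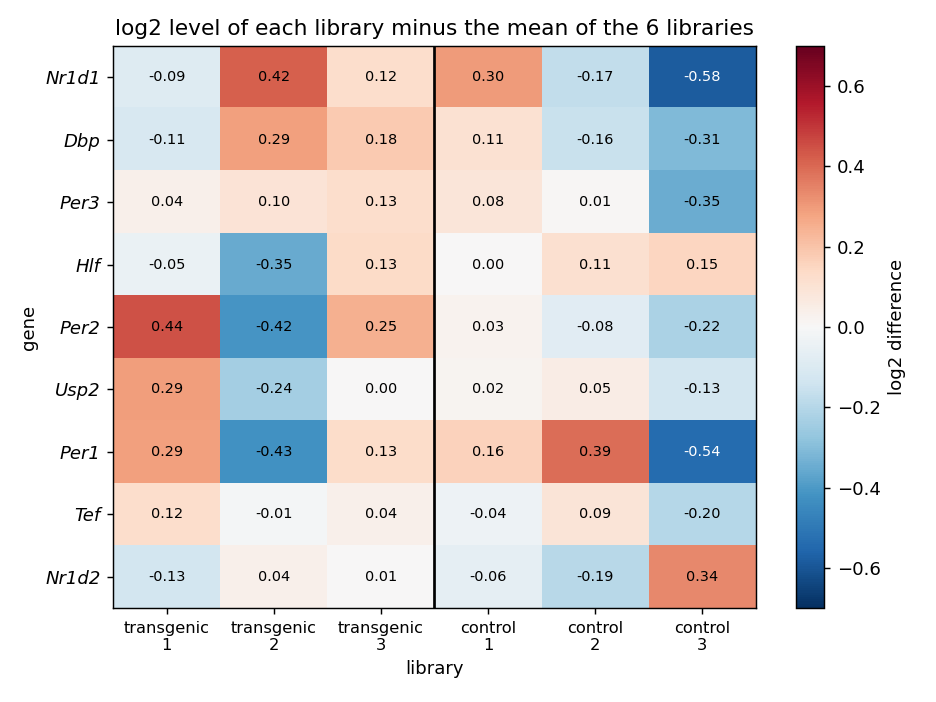
Log2 level of each library minus the mean of the 6 libraries, for the 9 clock genes (rows, ordered after their values were seen) in transgenic and control kidneys (columns). Transgenic kidney 2 is at 0.42 for Nr1d1 and 0.29 for Dbp, and at -0.42 for Per2 and -0.43 for Per1.

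Promoter windows from RefSeq (GRCm38.p6, the assembly that mm10 names), running from 250 bases before to 50 bases after a transcript start, were found for all listed genes except Per2, 10 windows in all, and were searched on both strands. They are shown because the loop acts through these short sequences. Sought were the E-box CACGTG, present in 7.15% of all 32851 windows, its variant CACGTT (4.68%), the D-boxes TTACGTAA and TTATGTAA (1.06%), the REV-ERB element TAGGTCA (2.61%) and the cyclic AMP element TGACGTCA (1.79%). Of the 8 genes, 5 held at least 1 match. The share of all genes with a match to any of these sequences is not given, so this count is not read as a trait of the clock genes. Capitals mark the matches in 4 of them: D-boxes of Per3 starting 205 and 158 bases before the start, the E-box variant of Nr1d1 at 28 bases, read on the other strand, and E-boxes of Per1 at 166 bases and Tef at 127 bases.
Per3, chr4:151044616-151044915, minus strand: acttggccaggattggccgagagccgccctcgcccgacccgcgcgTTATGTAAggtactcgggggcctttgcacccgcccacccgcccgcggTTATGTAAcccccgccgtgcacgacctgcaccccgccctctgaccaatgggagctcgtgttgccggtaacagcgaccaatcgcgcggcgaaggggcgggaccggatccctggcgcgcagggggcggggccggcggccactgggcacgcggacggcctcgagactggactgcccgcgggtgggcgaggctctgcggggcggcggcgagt
Nr1d1, chr11:98775328-98775627, minus strand: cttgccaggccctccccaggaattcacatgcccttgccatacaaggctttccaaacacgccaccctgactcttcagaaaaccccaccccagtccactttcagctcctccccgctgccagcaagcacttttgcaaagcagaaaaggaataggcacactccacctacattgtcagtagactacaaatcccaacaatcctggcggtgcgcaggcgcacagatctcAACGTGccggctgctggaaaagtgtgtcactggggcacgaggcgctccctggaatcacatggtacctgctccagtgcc
Per1, chr11:69098699-69098998, plus strand: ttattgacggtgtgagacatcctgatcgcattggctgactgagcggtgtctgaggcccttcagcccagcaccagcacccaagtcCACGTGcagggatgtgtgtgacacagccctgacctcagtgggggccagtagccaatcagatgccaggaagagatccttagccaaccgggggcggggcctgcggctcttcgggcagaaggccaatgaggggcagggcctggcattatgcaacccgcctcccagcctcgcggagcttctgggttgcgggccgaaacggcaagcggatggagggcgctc
Tef, chr15:81802423-81802722, plus strand: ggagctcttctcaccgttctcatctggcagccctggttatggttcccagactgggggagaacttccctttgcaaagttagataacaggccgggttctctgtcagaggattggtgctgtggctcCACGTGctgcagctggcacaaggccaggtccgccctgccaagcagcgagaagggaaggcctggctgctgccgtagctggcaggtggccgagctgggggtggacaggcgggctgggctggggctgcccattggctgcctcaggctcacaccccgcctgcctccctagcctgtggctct
A second Tef window (chr15:81811164-81811463) held an E-box at 138 bases before its start, and the window of Hlf (chr11:90390868-90391167) held the cyclic AMP element at 9 bases. The windows of Dbp, Nr1d2 and Usp2 held none of these letters, which says nothing of binding outside them. A match describes the sequence alone.

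Whether genes of opposite phase move against each other between kidneys could not be asked directly, since Arntl, Npas2, Clock, Nfil3 and Cry1 were not analysed here. The table keeps genes whose value called NRPKM lay at 5.0 or more in at least 2 of 6 samples, per the file headers. Pairs of the 9 listed genes, which peak at different hours of 1 cycle, were compared instead.

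Across the 6 libraries r was above 0 for Dbp with Nr1d1 and below 0 for Per1 with Nr1d2. No pair had an adjusted p under 0.05 over the 36 pairs of the 9 genes. An unadjusted exact permutation p under 0.05 was found for 8 pairs. These included Tef with Nr1d2 (r = -0.923, or -0.689 without control kidney 3) and Per3 with Nr1d1 (r = 0.877, or 0.767 without it). Each had an adjusted p of 0.1 for r, but of 0.411 and 0.35 for Spearman's rho. Tef with Per1 (r = 0.821, adjusted p = 0.157) and Per1 with Usp2 (r = 0.803, adjusted p = 0.1875) were among the 8 too. For Dbp and Nr1d1, r was 0.948 (exact permutation p = 0.00833, adjusted p = 0.1) and Spearman's rho 0.943 (exact permutation p = 0.0167, adjusted p = 0.2). Without control kidney 3 and transgenic kidney 2, the libraries farthest from the median of Dbp, r was 0.860, and on values centred on the group means it was 0.941. For Dbp and Per3, r was 0.809 (exact permutation p = 0.00694, adjusted p = 0.1) and rho 0.943 (exact permutation p = 0.0167, adjusted p = 0.2), with r at 0.983 without those libraries. For Nr1d1 and Nr1d2, r was -0.456 (exact permutation p = 0.368, adjusted p = 0.6775), but 0.867 without control kidney 3. For Dbp and Nr1d2, r was -0.257 (exact permutation p = 0.668, adjusted p = 0.829), but 0.980 without control kidney 3. Other pairs went the other way when control kidney 3 was left out. There r went from 0.252 to -0.802 for Dbp with Tef, from 0.375 to -0.914 for Tef with Nr1d1 and from 0.152 to -0.851 for Per1 with Nr1d1. Dbp with Hlf had r = -0.628 over the 6 libraries (exact permutation p = 0.175, adjusted p = 0.45). The labels give no batch within which to repeat these values.

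**Figure D4:**
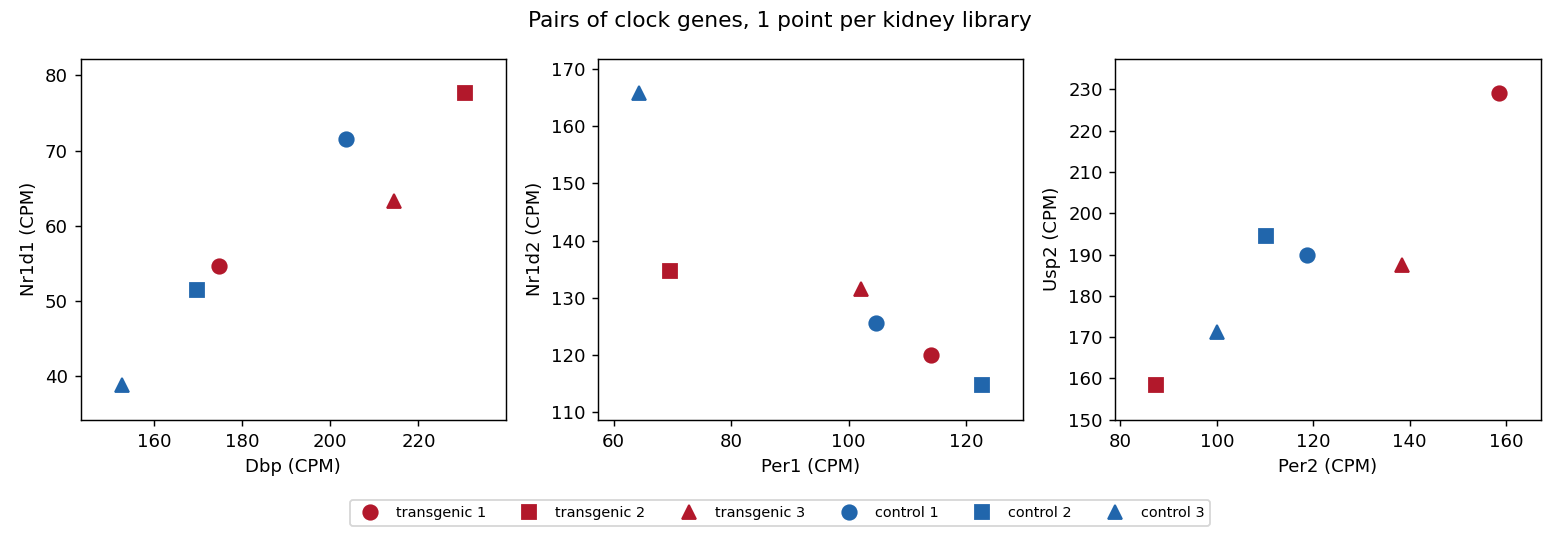
Levels (CPM) of Nr1d1 against Dbp, Nr1d2 against Per1 and Usp2 against Per2, 1 point per library. Nr1d1 is highest where Dbp is highest, in transgenic kidney 2, and that kidney has the lowest Per2 and Usp2; Nr1d2 is highest where Per1 is lowest, in control kidney 3.

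For Per2 and Usp2, r was 0.904 (exact permutation p = 0.0167, adjusted p = 0.1) and rho 0.771 (exact permutation p = 0.103, adjusted p = 0.411), but r was 0.521 without transgenic kidneys 1 and 2, so the relation rests on these. For Dbp and Per2, which peak at different hours, r was -0.113 (exact permutation p = 0.811, adjusted p = 0.859) and rho was -0.0286 (exact permutation p = 1, adjusted p = 1), with r at 0.0628 without control kidney 3 and transgenic kidney 2, -0.489 without control kidney 3 alone and 0.484 without transgenic kidney 2 alone. The pair nearest to passing was Per1 with Nr1d2, at r = -0.888 (exact permutation p = 0.00139, the smallest that permutation can give here; adjusted p = 0.05, at the threshold and not under it). Its exact permutation p multiplied by the 45 pairs tested at first was 0.0625. Its rho was -1.0 (exact permutation p = 0.00278, adjusted p = 0.1), and r was -0.978 without control kidney 3 and transgenic kidney 2. Of the 36 pairs, r was above 0 in 20 and below 0 in 16.

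Ratios within a library do not depend on library size, and 2 were chosen after the values were seen. The Dbp to Per2 ratio, an earlier-peaking over a later-peaking gene, was 1.10, 2.63 and 1.55 in transgenic kidneys, against 1.71, 1.54 and 1.53 in control kidneys, with means of 1.76 ± 0.788 in transgenic and 1.59 ± 0.106 in control kidneys (SD, n = 3 each; exact permutation p = 0.8, two-sided, where 3 against 3 cannot go below 0.1). It spanned 2.39-fold among the transgenic kidneys and 1.12-fold among the controls. The Nr1d1 to Per2 ratio was 0.344, 0.887 and 0.457 in transgenic kidneys, against 0.602, 0.467 and 0.388 in control kidneys (exact permutation p = 0.9). For both ratios to Per2 the highest and the lowest of the 6 kidneys were transgenic kidneys 2 and 1. Both divide by Per2, itself lowest in transgenic kidney 2 and highest in transgenic kidney 1, so they are not separate observations. Time of day was not recorded in the labels, and its part in these values was not tested.

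Genes that answer to glucocorticoids, hormones that also induce Per1, did not share 1 order of the kidneys. Of the 7 tested, 4 had their lowest value in transgenic kidney 2 (Fkbp5, Pck1, Sgk1 and Errfi1), 1 in transgenic kidney 1 (Klf9) and 2 in control kidney 3 (Ddit4 and Cebpd). Fkbp5, a receptor co-chaperone, had 231, 113 and 147 CPM in transgenic kidneys, against 118, 181 and 178 CPM in control kidneys. Pck1, the gluconeogenic enzyme, had 2738, 1068 and 1868 CPM in transgenic kidneys, against 1572, 1744 and 1578 CPM in control kidneys. As with Per2, transgenic kidney 1 was highest and transgenic kidney 2 lowest for both. Sgk1, a kinase that activates sodium channels, had 92.7, 54.06 and 97.6 CPM in transgenic kidneys, against 78.04, 80.2 and 107.3 CPM in control kidneys, and was also lowest in transgenic kidney 2. Cebpd, a transcription factor gene, had 10.4, 15.5 and 14.3 CPM in transgenic kidneys, against 13.6, 18.6 and 6.79 CPM in control kidneys. Klf9, a transcription factor gene too, had 26.1, 27.5 and 31.9 CPM in transgenic kidneys, against 32.04, 30.5 and 32.2 CPM in control kidneys. In both, transgenic kidney 1 was below transgenic kidney 2, the reverse of Fkbp5 and Pck1, and in Ddit4 these kidneys were level at 28.7 CPM each. Of the 9 genes of this list 7 were tested, and none passed the test between groups (median log2 fold change -0.024). Fkbp5 differed by 0.044, Pck1 by 0.21, Sgk1 by -0.12, Klf9 by -0.15, Ddit4 by -0.072 and Cebpd by 0.052 on the log2 scale. The part of these hormones in the clock gene values was not tested.

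Other genes around the clock did not pass the test between groups either. Of 22 cofactors, kinases and ubiquitin ligases of the clock, 11 were tested and 0 passed, with 3 higher and 8 lower in transgenic kidneys on average and a median log2 fold change of -0.061. Those with the smallest p-values were the coactivator gene Ppargc1a (-0.21), the AMP kinase subunit gene Prkaa2 (-0.20), the casein kinase genes Csnk2a1 (-0.12), Csnk2b (0.086) and Csnk1d (0.094), and the ubiquitin ligase gene Fbxw11 (-0.096). Of 22 clock-controlled genes of kidney and liver, 17 were tested and 0 passed (7 higher, 10 lower, median -0.032). Slc9a3, the sodium-proton exchanger of the proximal tubule, was the 1 tested gene of that list whose groups were separate, 5.88% of the list, against 5.98% of all genes. Its margin was narrow, at 184, 169.6 and 165 CPM in transgenic kidneys and 147, 164 and 136 CPM in control kidneys (log2 fold change 0.21 ± 0.095, SE; adjusted p = 0.997, edgeR). The others with small p-values were the sodium pump subunit gene Atp1b1 (-0.19), the water channel genes Aqp2 (-0.16) and Aqp4 (-0.24), the transferrin receptor gene Tfrc (-0.31) and Nampt (-0.17), which encodes an NAD-making enzyme. Of 10 temperature-responsive genes 9 were tested and 0 passed (median 0.023), among them the cold-inducible Cirbp (0.18) and the heat shock genes Hspa1a (0.11), Hspa1b (-0.21), Hsp90aa1 (-0.10), Hspa8 (0.087) and Dnaja1 (-0.20). Hspa1a and Hspa1b are near-identical copies, so their reads can be split between them. Members of these lists on chromosome X, 4 genes that include Nono and Tsc22d3, were not tested.

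The genes whose levels followed Dbp most closely over the 6 libraries were, among 7191 others, Cbr2, Bik, Acp6, Psmc4, Irf3, 3010026O09Rik, Sumf2, Fastkd1, Hoxc6 and Bckdk, with r of 0.948 to 0.982. Nr1d1 came 11th, Per3 150th and Tef 2562nd. At the opposite end stood Zfp35, Scd2, Anks4b, Ube2n, Lemd2, Mgst1, Rilpl1, Slco4a1, Slc30a6 and Uap1, with r of -0.985 to -0.950. Hlf was 732nd from that end, while Per1 and Per2 lay near the middle, at r = -0.018 and -0.113. These middle places rest on single libraries: for Dbp and Per1 r was -0.863 without control kidney 3, 0.472 without transgenic kidney 2 and -0.965 without both, and the values for Per2 are those given above. These ranks describe 6 libraries, within which all genes share depth and RNA quality, and carry no test.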

How the data were processed

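Per the labels, RNA was isolated with a column kit and sequenced on an Illumina instrument; the genome build was mm10, per the submitters' processing notes. Neither aligner nor counter is named (not given in the sources used here). A single table was deposited, with genes kept where at least 2 of 6 samples had an NRPKM between 5.0 and 84233.281, per the file headers. Its deposited raw columns hold estimated counts, which were rounded to whole numbers. Its deposited normalized columns hold log2 values, equal to log2 counts shifted by 1 constant per library and 1 per gene, used for an alternative only. A further 12 columns of per-sample values match none of these samples and were not used. Chromosomes came from RefSeq GRCm38.p6, for 7356 of 7373 rows.

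The test was the edgeR quasi-likelihood test (version 4.0.16, R 4.3.3) on group, over all 6 libraries without X and Y rows, after filterByExpr and TMM, on 7194 genes, with Benjamini-Hochberg adjustment and a threshold of 0.05. SE is the log2 fold change over the square root of F. Correlations used log2 CPM with a prior count of 2 and exact permutation over all pairings of the 6 libraries; tests were two-sided. The fit was tested on simulated data. Alternatives used DESeq2 1.42.0 and limma 3.58.1.

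The members and lists were chosen with earlier results of these data known. Named genes were the members, up to 6 genes per other list with the smallest p-values, any without overlap between groups, and the 10 most and 10 least like Dbp. Correlation with Arntl was planned; Arntl was not analysed here, and all pairs of the members took its place after the data were seen. At first 45 pairs were tested; the 9 of them with 1 further gene are not reported here, and p-values were adjusted over the other 36.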

Additional observations from a re-analysis of the deposited data

How the results depend on the processing

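The count of clock genes called stayed at 0 under all 14 refits and at an adjusted p of 0.1 (with an unadjusted p under 0.05, 0 of the 9 with edgeR, DESeq2 and limma-voom on all libraries, 1 without transgenic kidney 1, which was Dbp, 1 without transgenic kidney 2, which was Per2, and 2 without control kidney 1, which were Dbp and Nr1d1). The count over all genes was 1 with edgeR; it was 2 with DESeq2, 0 with X and Y rows kept (edgeR, 112 with an unadjusted p under 0.05), 0 with limma on the authors' log2 values (133 with an unadjusted p under 0.05), and 0 to 2 without 1 library (0 without any 1 transgenic kidney or control kidney 1, 2 without control kidney 3). With limma-voom array weights, log2 fold changes turned to -0.088 for Nr1d1, 0.021 for Nr1d2, 0.012 for Nampt, 0.063 for Sgk1 and -0.0997 for Cebpd. Leaving out 1 library turned the sign of some: ranges were -0.25 to 0.18 for Per1, -0.18 to 0.099 for Nr1d2, -0.098 to 0.17 for Usp2, -0.28 to 0.040 for Nampt, -0.47 to 0.017 for Tfrc, -0.28 to 0.25 for Fkbp5, -0.27 to 0.10 for Sgk1, -0.32 to 0.078 for Ddit4, -0.27 to 0.41 for Cebpd, -0.15 to 0.50 for Pck1, -0.093 to 0.32 for Hspa1a, -0.43 to 0.048 for Hspa1b, -0.23 to 0.058 for Hsp90aa1, -0.035 to 0.24 for Hspa8 and -0.37 to 0.047 for Dnaja1. The cause was not tested. In all, 28 of 462 recomputed fold changes turned sign. These were of the members and the genes named from the cofactor, clock-controlled, glucocorticoid and temperature lists. The genes most and least like Dbp were not counted. For Dbp and Nr1d1 r lay between 0.860 and 0.973 over the settings, and for Per1 and Nr1d2 between -0.995 and -0.843; centred on group means Per1 and Nr1d2 had r = -0.903 and an adjusted p of 0.0167 by exact permutation, which does not allow for the removed means. The replicate numbers share only a number: deviations from the group mean correlated at 0.0018, -0.019 and 0.33 for numbers 1, 2 and 3, and not every sample correlated best with its own number. With the number as a replicate block, 1 gene and 0 clock genes were called. With 3 libraries a group, only differences larger than the spread between libraries, which may be technical, can be seen.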
